A study of Mus musculus with 33 samples.

Results

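A set of 41 genes known from meningeal fibroblasts and the extracellular matrix was followed through cerebellum and cortex of mice with altered miR-7 or Cyrano. The genes were chosen by symbol, and all 41 were found once in each of the 5 tables, of 38393 features in all. Polyadenylated RNA was read from 33 libraries of male C57Bl/6J mice, all aged 1 month. CyrMut mice carry a mutated miR-7 site in Cyrano, CyrKO mice are Cyrano-/-, and Mir7DKO mice are Mir7a1-/-; Mir7b-/-. The sources used here do not say how these alleles were made or whether the meninges were kept on the tissue. In experiment 1A, cerebella of 3 wild-type (WT) and 4 CyrMut mice were compared. In experiment 1B, cerebella of 4 WT, 4 CyrKO and 4 Mir7DKO mice were compared, and both mutants share the WT libraries. In experiment 2, 4 WT and 3 Mir7DKO libraries were made from cerebellum and the same numbers from cortex. The sample descriptions number the experiments 1, 2 and 3 where titles and tables have 1A, 1B and 2, and libraries were assigned by title.

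The meninges are the membranes that wrap the brain, and their fibroblasts secrete collagens and proteoglycans. These cells also take up and release small molecules at the brain border and make retinoic acid. They supply the chemokine Cxcl12, which holds migrating precursor cells near the surface in development. Several of the 41 genes are also active elsewhere in the brain: Ptgds in oligodendrocytes, Vim in astrocytes and the Bergmann glia of the cerebellum, and Cxcl12 and Fn1 in blood vessels. Cyrano is a long noncoding RNA with an extensively paired site for miR-7, and miR-7 is a microRNA that lowers messenger RNAs through short matches to its seed, bases 2 to 8, in their 3′ UTRs.

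The mature miR-7 sequences are shown because their seed, in capitals, defines which of the 41 genes could pair with the microRNA missing in Mir7DKO mice. They come from RefSeq (GRCm38.p6).
mmu-miR-7a-5p: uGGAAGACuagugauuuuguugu
mmu-miR-7b-5p: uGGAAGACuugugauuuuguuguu
Both share 1 seed. The RefSeq table lists miR-7a at Mir7-1 on chromosome 13 and at Mir7-2 on chromosome 7, and miR-7b at Mir7b on chromosome 17. The genotype label names Mir7a1 and Mir7b and does not name Mir7-2.

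In the longest annotated 3′ UTR (GENCODE M21, GRCm38), 7 of the 40 genes that passed the count filter held a seed match, 17.5% against 27.0% of all genes tested in Mir7DKO cerebellum of experiment 2. The motifs searched on the sense strand were GTCTTCCA, GTCTTCC and TCTTCCA, the longer one containing both shorter ones. The 7 genes were Col1a2, Col6a1, Col6a2, Fbln1, Pcolce2, Slc22a6 and Thbd. The 4 sites below are shown because they are the 8-base matches and the matches of genes that the results return to. Capitals mark the match, and each window has 30 bases written 5′ to 3′ on the gene's strand.
Col6a1, chr10:76709199-76709228, minus strand: gtctgtgttctGTCTTCCAtgctcaacatg
Fbln1, chr15:85286097-85286126, plus strand: ctagctcagagGTCTTCCAtgagctggagg
Pcolce2, chr9:95697911-95697940, plus strand: gcactgactgcTCTTCCAgatgaaccccag
Thbd, chr2:148405999-148406028, minus strand: acagcccagttTCTTCCAagtagatactgg

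Levels are CPM, counts relative to library sizes scaled by TMM, which removes differences in library composition. Library totals spanned 6.89 to 24.94 M counts. A total of 40 genes passed the filter in every comparison, and Slc22a2, an organic cation transporter, did not, with 0 to 1.41 CPM over all libraries. Markers of cerebellum summed to 3990 to 4681 CPM in cerebellum and 174 to 188 CPM in cortex, so the tissue labels held. The 7 genes that define the fibroblasts here (Dcn, Col1a1, Col1a2, Lum, Slc6a13, Foxc1 and Tbx18) were above 0 in all libraries and together summed to 99.1 to 143 CPM. In such bulk tissue, fewer cells and less RNA per cell cannot be told apart. Choroid plexus markers differ widely between single libraries. No pair of libraries agreed within counting noise.

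In WT cerebellum of experiment 2, per kilobase (kb) of the longest coding transcript, Ptgds stood first at 475 ± 28.3 CPM per kb (SD, n = 4). Ptgds makes prostaglandin D2 and is also known as a carrier of retinoids. Vim, an intermediate filament protein, followed at 53.4 ± 2.02 CPM per kb. Mgp, an inhibitor of calcification, lay at 15.3 ± 2.70, Cxcl12 at 13.6 ± 0.695, the proteoglycan Dcn at 12.9 ± 1.80 and fibronectin, Fn1, at 12.2 ± 0.638 CPM per kb. The library ranges of these 4 neighbours overlapped, and their order was not tested. Col1a2, a chain of collagen I, reached 8.83 ± 0.394 CPM per kb, and its partner chain Col1a1 3.66 ± 0.330. The transcription factors were near the bottom, from Foxc1 at 1.12 ± 0.271 down to Foxd1 at 0.235 ± 0.114 CPM per kb. In WT cortex Ptgds was again first at 599.7 ± 34.1 CPM per kb, and Col6a1, a collagen VI chain, had rank 4 at 17.1 ± 2.99, against rank 20 in cerebellum at 3.33 ± 0.517.

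**Figure D1:**
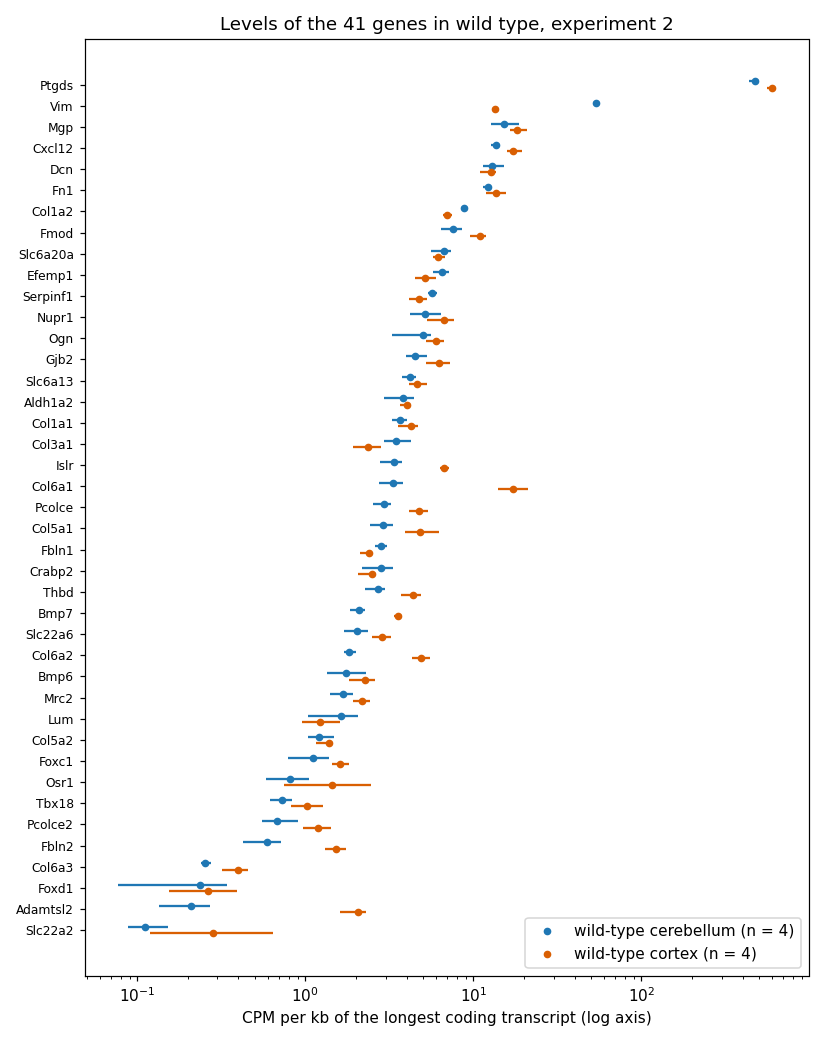
Mean level of each of the 41 genes in WT cerebellum and WT cortex of experiment 2, in CPM per kb on a log axis, with lines from the lowest to the highest of 4 libraries and each tissue scaled on its own libraries. Ptgds stands at the top in both tissues, at 475 and 599.7 CPM per kb, and Col6a1 and Adamtsl2 lie apart between the tissues.

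The first comparison asks how the genes differ between tissues of WT mice. Of 40 genes tested by the quasi-likelihood F-test of edgeR with Benjamini-Hochberg adjustment over all genes (called at an adjusted p under 0.05), 29 differed between cerebellum and cortex, 3 higher and 26 lower in cerebellum. This is 72.5%, near the background of 74.7% of 14001 genes, of which 37.3% were higher and 37.4% lower. The median log2 change of the 40 genes was -0.41, beside 0.01 for all genes. All 3 chains of collagen VI, all 3 signals (Cxcl12, Bmp6 and Bmp7) and 4 of 5 transcription factors and regulators were lower in cerebellum. DESeq2 called 26 genes.

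Adamtsl2, a secreted glycoprotein that binds the growth factor reservoir of microfibrils, differed most. It was 0.699, 0.472, 0.954 and 0.818 CPM in cerebellum and 5.99, 7.31, 8.50 and 8.46 CPM in cortex, on a scale common to both tissues. All 4 cortex libraries lay above all 4 cerebellum libraries, with a log2 change of -3.31 ± 0.235 (SE) and an adjusted p of 9.7e-12.

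Col6a1 was 15.28, 11.04, 12.16 and 14.96 CPM in cerebellum and 70.2, 88.7, 58.5 and 69.4 CPM in cortex. The groups were far apart, with a log2 change of -2.42 ± 0.110. Col6a2, its neighbour on chromosome 10 and partner chain, was 7.77 to 9.14 CPM in cerebellum and 20.5 to 26.3 CPM in cortex, a change of -1.48 ± 0.105. Col6a3, the third chain, was lower by less, at -0.72 ± 0.196.

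The matrix glycoprotein Fbln2 was lower in cerebellum by -1.42 ± 0.181, at 1.997 to 3.352 against 6.38 to 8.52 CPM. Islr, a secreted leucine-rich protein, was lower by -1.05 ± 0.120, at 6.04 to 8.19 against 14.4 to 16.4 CPM. Osr1, a transcription factor, was lower by -0.89 ± 0.308, but its groups overlapped and its highest cortex library, at 5.06 CPM, was far from the other 3 at 1.53 to 2.67. Its call was lost without cortex replicate 1, at -0.49 with an adjusted p of 0.1571 in edgeR, and without cerebellum replicate 4, at -0.74 with 0.0504.

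Only 3 of the 40 genes were higher in cerebellum. Vim was 120, 111, 117 and 111 CPM in cerebellum and 30.1, 29.9, 30.4 and 29.6 CPM in cortex, a log2 change of 1.93 ± 0.0555 with no overlap. Col3a1, a fibrillar collagen, was 15.98, 18.5, 23.2 and 18.1 CPM in cerebellum and 16.1, 12.8, 14.1 and 10.8 CPM in cortex. Its groups overlapped by 1 library a side, and its change was 0.50 ± 0.123. Col1a2 was higher by 0.28 ± 0.0634, at 43.99 to 48.33 against 35.84 to 40.71 CPM in cortex. Col1a1 was lower by -0.28 ± 0.0929, so the changes of the collagen I chains had opposite signs. The groups of Col1a1 overlapped, at 19.05 to 23.21 CPM in cerebellum and 21.65 to 28.47 CPM in cortex.

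Several fibroblast genes did not pass the test. Dcn was 19.7, 22.6, 26.3 and 19.9 CPM in cerebellum and 23.6, 19.7, 23.5 and 24.3 CPM in cortex, with a log2 change of -0.04 and a 95% interval of -0.24 to 0.17. Slc6a13, a GABA and taurine transporter, gave -0.22 (-0.48 to 0.04), and Slc6a20a, a proline transporter, 0.07 (-0.12 to 0.25). Aldh1a2, which makes retinoic acid, gave -0.15 (-0.44 to 0.13). Microglia markers were lower in cerebellum beside these values, 6 of 6 called with a median of -1.93, and 2 of 11 endothelial markers were called with a median of -0.05. With each tissue scaled on its own, summed astrocyte markers were 2572 to 2685 CPM in cerebellum and 5382 to 5670 CPM in cortex, opposite in direction to Vim. Border macrophage markers summed to 7.15 to 10.05 against 12.98 to 16.8 CPM, and choroid plexus markers to 217 to 263 against 256 to 947 CPM, the latter overlapping. The part of these markers in the result was not tested.

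**Figure D2:**
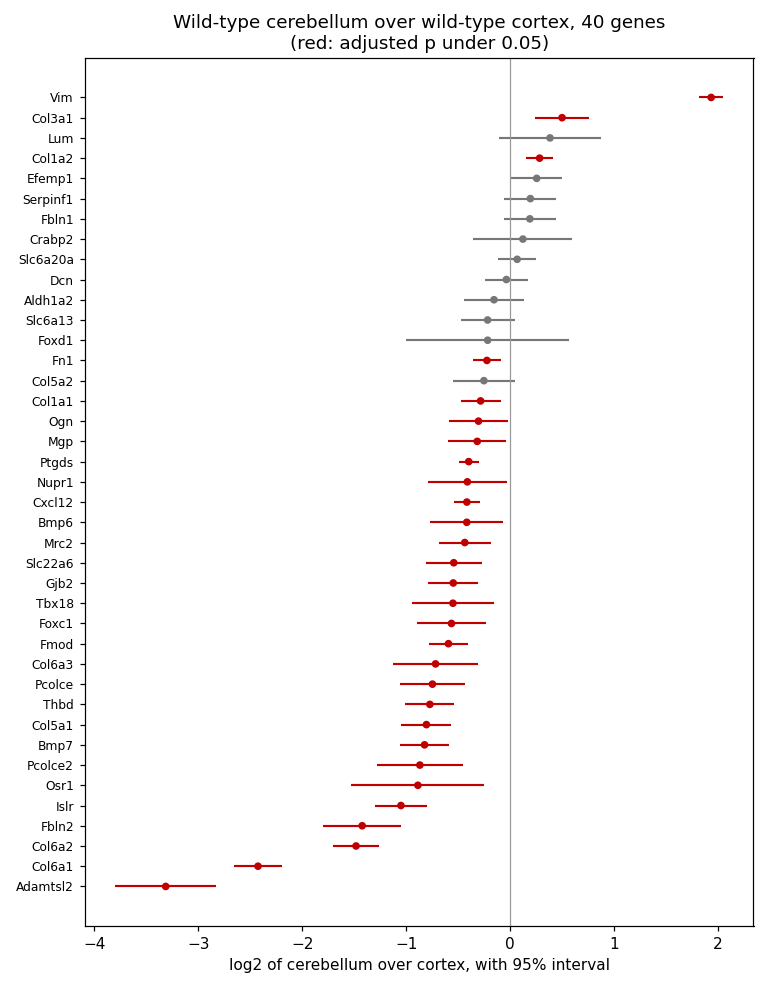
Log2 change of WT cerebellum over WT cortex for the 40 genes tested, 4 libraries a tissue, with 95% intervals and red for an adjusted p under 0.05. Adamtsl2 at -3.31 and Col6a1 at -2.42 lie far to the left, Vim at 1.93 far to the right, and Dcn at -0.04.

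The CyrMut comparison asks what a lost miR-7 site in Cyrano does. None of the 40 genes passed the adjusted threshold in edgeR, beside a background of 0.00673% (1 of 14866 genes), 1 gene had an unadjusted p under 0.05 (beside 4.98% of all genes), and DESeq2 called 1. The median log2 change was -0.04, but 0.01 without WT replicate 2 or without CyrMut replicate 2, and 15 of 40 genes were positive, beside 49.1% of all genes. All 3 retinoid and prostaglandin genes had negative values, from -0.21 to -0.16, none past the test.

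The gene with an unadjusted p under 0.05 was Pcolce2, an enhancer of the enzyme that trims procollagen. It was 2.33, 2.18 and 2.52 CPM in WT and 5.83, 3.48, 7.41 and 4.73 CPM in CyrMut libraries. All 4 CyrMut libraries lay above all 3 WT libraries, as for 2.68% of all genes, with a log2 change of 1.23 ± 0.238. In WT cerebellum of the other experiments, however, Pcolce2 reached into the CyrMut range, at 2.35 to 4.49 CPM in 1B and 2.44 to 4.00 CPM in experiment 2. Its adjusted p was 0.7041 in edgeR and 0.0108 in DESeq2, and the authors' deposited table gives 1.21 with an adjusted p of 0.0214. Without CyrMut replicate 2 the adjusted p in edgeR was 0.0332, with 1.38.

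Choroid plexus markers were also high in most CyrMut libraries. The 15 markers summed to 858, 195 and 213 CPM in WT and 1939, 252, 2531 and 1708 CPM in CyrMut libraries. All 4 CyrMut libraries had the same order in Pcolce2 as in this sum. In WT the library with a sum of 858 CPM had Pcolce2 at 2.33 CPM, between the 2.18 and 2.52 CPM of the others. These WT values rest on 53, 55 and 32 counts, too few to order levels this close. Of these markers, 14 of 15 had an unadjusted p under 0.05 and none was called, and none was at 0 in all libraries. With a choroid plexus index in the fit the change of Pcolce2 was 0.85, with an adjusted p of 1.0000.

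Ogn, a small leucine-rich proteoglycan, was 10.8, 13.1 and 12.4 CPM in WT and 20.5, 10.2, 15.1 and 18.3 CPM in CyrMut libraries. The groups overlapped through CyrMut replicate 2, and the log2 change was 0.41 ± 0.189 (unadjusted p = 0.0542). Thbd, the thrombin receptor thrombomodulin, was 14.01 to 14.89 CPM in WT and 10.9 to 14.5 CPM in CyrMut, a change of -0.19 ± 0.108.

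The CyrKO comparison asks what loss of Cyrano does. None of the 40 genes was called by edgeR or DESeq2, beside 0.0220% of 13664 genes in edgeR, and 2 had an unadjusted p under 0.05, beside 7.35% of all genes. The median log2 change was 0.06, but -0.01 without WT replicate 1, with 27 of 40 genes positive beside 49.5% of all genes. The 4 small leucine-rich proteoglycans were all positive, with a median of 0.29, none called.

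Ogn was 10.9, 12.2, 12.9 and 9.47 CPM in WT and 11.2, 15.6, 13.1 and 20.5 CPM in CyrKO. The groups overlapped, and its log2 change was 0.43 ± 0.165 (unadjusted p = 0.0217). Lum, another collagen-binding proteoglycan, was 2.96, 3.74, 2.19 and 2.71 CPM in WT and 3.36, 4.30, 3.98 and 4.12 CPM in CyrKO, a change of 0.45 ± 0.186 (unadjusted p = 0.0316). Only 1 WT library lay within its CyrKO range. Col6a3 was 2.51 to 3.76 CPM in WT and 3.19 to 5.02 CPM in CyrKO, a change of 0.39 ± 0.190.

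The Mir7DKO comparisons ask what loss of the named miR-7 genes does. In experiment 1B none of the 40 genes was called by edgeR or DESeq2, beside 0.00713% of 14031 genes in edgeR, and 2 had an unadjusted p under 0.05, beside 3.68% of all genes. The median log2 change was 0.05, but -0.02 without WT replicate 1 and -0.05 without Mir7DKO replicate 2, with 26 of 40 genes positive beside 50.3% of all genes.

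Ogn was 12.5, 17.6, 16.8 and 16.5 CPM in Mir7DKO, beside the WT libraries given for CyrKO, with a log2 change of 0.50 ± 0.127 (unadjusted p = 0.0019, adjusted p = 0.9997). Because CyrKO and Mir7DKO share these WT libraries, their changes in Ogn are not independent. Gjb2, a gap junction protein of the leptomeninges, was 7.90, 9.08, 7.52 and 8.19 CPM in WT and 10.1, 12.1, 9.30 and 9.90 CPM in Mir7DKO. These groups did not overlap, as for 1.34% of all genes in that direction, and the change was 0.35 ± 0.115 (unadjusted p = 0.01). In cerebellum of experiment 2 the groups of Gjb2 overlapped, at 9.59 to 12.66 CPM in WT and 10.46 to 11.47 CPM in Mir7DKO.

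In cerebellum of experiment 2, 2 of the 40 genes, Adamtsl2 and Cxcl12, were called higher in Mir7DKO and none lower. The background was 0.198% of 14146 genes, 0.156% higher and 0.0424% lower. The median log2 change of the 40 was 0.11, beside -0.00 for all genes, and 34 of 40 were positive, beside 49.3% of all genes. The groups did not overlap for 5 of the 40, all higher, beside 3.37% of all genes in that direction. DESeq2 called Cxcl12 alone.

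Adamtsl2 was 0.715, 0.483, 0.975 and 0.834 CPM in WT and 1.87, 2.11 and 2.98 CPM in Mir7DKO. All 3 Mir7DKO libraries lay above all 4 WT libraries, with a log2 change of 1.59 ± 0.311 (edgeR adjusted p = 0.0312). The counts behind it were 7, 5, 12 and 10 in WT and 23, 27 and 37 in Mir7DKO. The adjusted p was 0.0667 in DESeq2, and the authors' deposited table gives 1.61 with 0.0981.

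Cxcl12 was 78.8, 80.0, 74.5 and 71.5 CPM in WT and 93.9, 88.3 and 104 CPM in Mir7DKO. The groups did not overlap, and the log2 change was 0.33 ± 0.0647 (edgeR adjusted p = 0.0315, DESeq2 0.0087). The authors' deposited table gives 0.33 with an adjusted p of 0.00974.

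Both calls were lost when some single libraries were left out. The adjusted p of Adamtsl2 was 0.1206, 0.1388 and 0.1063 without WT replicates 1, 2 and 4 and 0.1407 without Mir7DKO replicate 3. That of Cxcl12 was 0.1115, 0.0869, 0.0898 and 0.1921 without WT replicates 1 to 4 and 0.1244 without Mir7DKO replicate 3. The direction held each time, with changes of 1.37 to 1.75 for Adamtsl2 and 0.26 to 0.38 for Cxcl12.

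Choroid plexus markers were also high in these Mir7DKO libraries, with 5 of 10 tested markers called and a median log2 change of 1.90. Their sum was 217 to 263 CPM in WT and 1501, 1104 and 217 CPM in Mir7DKO. Mir7DKO replicate 3, at the WT level of these markers, had the highest Adamtsl2 and Cxcl12. With the choroid plexus index in the fit the changes were 1.95 and 0.44, with adjusted p of 0.0405 and 0.0259. Cortex markers, given because Adamtsl2 is higher in cortex, summed to 8.69 to 10.4 CPM in WT and 9.43 to 11.4 CPM in Mir7DKO cerebellum. In WT cortex they summed to 423 to 493 CPM. The part of cortex tissue in the value of Adamtsl2 was not tested. Mural markers summed to 381.7 to 405.1 CPM in WT and to 384.1, 407.4 and 447.9 CPM in Mir7DKO replicates 1 to 3. Endothelial markers summed to 356.6 to 384.8 CPM in WT and to 374.7, 395.7 and 395.7 CPM in Mir7DKO. The part of these vessel markers in the value of Cxcl12 was not tested.

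Thbd was 11.1, 10.3, 10.2 and 8.42 CPM in WT and 17.72, 12.88 and 13.04 CPM in Mir7DKO. Its groups did not overlap and its log2 change was 0.54 ± 0.132, with an adjusted p of 0.1414 in edgeR. With that index in the fit it was 0.36. Pcolce, the paralog of Pcolce2 with the same role, was 4.08 to 5.28 CPM in WT and 6.52 to 7.56 CPM in Mir7DKO, a change of 0.58 ± 0.155 and an adjusted p of 0.197.

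The same genes gave other values in experiment 1B. Adamtsl2 was 2.28, 3.42, 1.67 and 2.07 CPM in WT and 1.056, 2.402, 1.802 and 0.725 CPM in Mir7DKO of that experiment, a log2 change of -0.59 ± 0.340. The groups overlapped. Cxcl12 was 76.1, 86.6, 78.8 and 78.3 CPM in WT and 80.6, 88.5, 77.6 and 73.8 CPM in Mir7DKO, a change of 0.01 with a 95% interval of -0.14 to 0.16.

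The difference between the experiments, tested as an interaction, was 2.18 ± 0.493 for Adamtsl2 (unadjusted p = 0.00029, adjusted p = 0.6053) and 0.32 ± 0.0982 for Cxcl12 (unadjusted p = 0.004, adjusted p = 0.9992). None of the 40 genes, and 0% of all genes, passed this test in edgeR, and 3.83% of all genes had an unadjusted p under 0.05. In 1 fit over both experiments none of the 40 genes was called by edgeR or DESeq2, beside 0.00688% of 14532 genes in edgeR, and 6 had an unadjusted p under 0.05, beside 6.07% of all genes. In that fit Ogn gave 0.37 ± 0.108, Cxcl12 0.16 ± 0.0598 and Adamtsl2 0.30 ± 0.332 (edgeR adjusted p = 0.9497).

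In cortex of experiment 2 none of the 40 genes was called by edgeR or DESeq2, beside 0.0436% of 13754 genes in edgeR, and 3 had an unadjusted p under 0.05, beside 5.77% of all genes. The median log2 change was 0.05, with 24 of 40 genes positive beside 51.6% of all genes. Choroid plexus markers summed to 363, 256, 804 and 947 CPM in WT and 259, 268 and 276 CPM in Mir7DKO cortex, and with their index in the fit the median was 0.14.

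Cxcl12 was 100.1, 89.8, 109 and 90.1 CPM in WT and 112, 111 and 106 CPM in Mir7DKO cortex. The groups overlapped, and the log2 change was 0.18 ± 0.0653 (unadjusted p = 0.0146). Vim was 29.3, 29.3, 29.7 and 29.0 CPM in WT and 34.9, 38.3 and 29.2 CPM in Mir7DKO, a change of 0.22 ± 0.0875, with the third Mir7DKO library at the WT level. Lum was 2.34, 2.34, 3.95 and 3.27 CPM in WT and 4.64, 3.61 and 4.45 CPM in Mir7DKO, a change of 0.50 ± 0.225.

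Some markers of other cells were also higher in Mir7DKO cortex. Endothelial markers summed to 352.6 to 372.9 CPM in WT and 383.3 to 407.9 CPM in Mir7DKO, with 4 of 11 higher at an unadjusted p under 0.05 and none called by edgeR. Astrocyte markers summed to 5382 to 5670 CPM in WT and 5895 to 6131 CPM in Mir7DKO, with 3 of 5 higher at that level and none called. Microglia markers summed to 253.6 to 275.8 and 278.2 to 282.7 CPM. None of these 3 sums overlapped between the groups, where 3.67% of all genes did not overlap in that direction. The sums of other lists overlapped. Mural markers were at 359.0 to 412.8 CPM in WT and 391.7 to 450.1 CPM in Mir7DKO, and oligodendrocyte markers at 5938 to 6710 and 5903 to 6268 CPM. The part of these markers in the values of Cxcl12 and Vim was not tested.

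Adamtsl2 was 5.84 to 8.31 CPM in WT and 7.88 to 8.70 CPM in Mir7DKO cortex. The interaction of genotype with tissue, cerebellum minus cortex, gave 1.44 ± 0.327 for it, with an adjusted p of 0.0868. None of the 40 genes passed that test in edgeR, beside 0.155% of all genes, and 5 had an unadjusted p under 0.05, beside 4.92% of all genes.

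**Figure D3:**
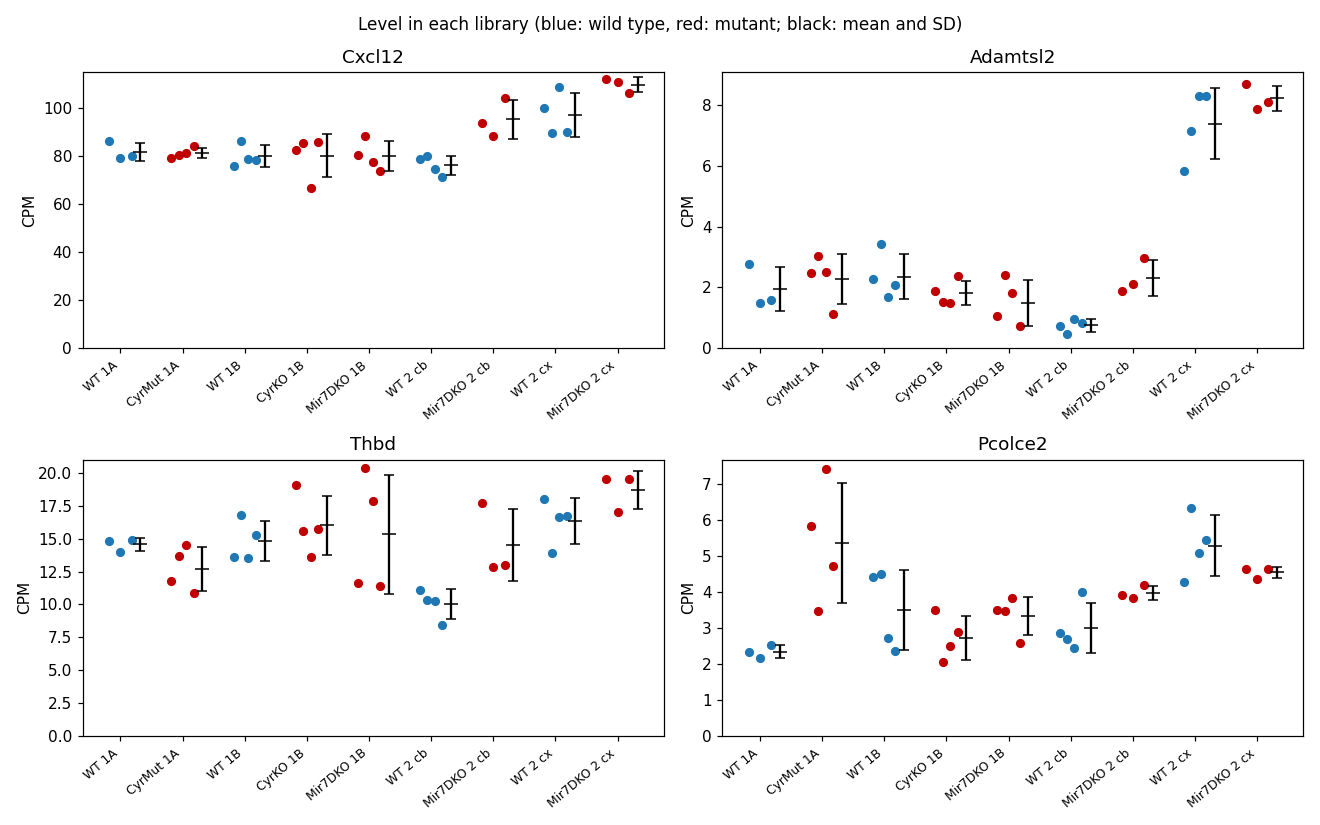
CPM of Cxcl12, Adamtsl2, Thbd and Pcolce2 in each of the 33 libraries by group (cb: cerebellum, cx: cortex), with WT in blue, mutants in red and black bars for mean and SD. Adamtsl2 in Mir7DKO cerebellum of experiment 2 lies at 1.87 to 2.98 CPM above its WT, but within the range of the WT of experiment 1B at 1.67 to 3.42.

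The median changes of genes with and without a miR-7 seed match were set side by side in Mir7DKO, with no test. In cerebellum of experiment 2 the median log2 change was 0.11 for the 7 genes with a match and 0.11 for the others. In experiment 1B these medians were -0.05 and 0.06, and in cortex -0.001 and 0.07. Over all genes the medians with and without a match were 0.002 and -0.003 in cerebellum of experiment 2. They were -0.001 and -0.0 in experiment 1B, and 0.007 and 0.003 in cortex. Col6a1, with an 8-base and a 7-base match, gave -0.05, 0.11 and -0.01 in experiment 1B, cerebellum of experiment 2 and cortex. Fbln1, a fibulin with an 8-base match, gave 0.17, -0.06 and 0.18. Thbd, with a 7-base match, gave 0.07, 0.54 and 0.19, and neither Adamtsl2 nor Cxcl12 holds a match in its longest 3′ UTR.

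**Figure D4:**
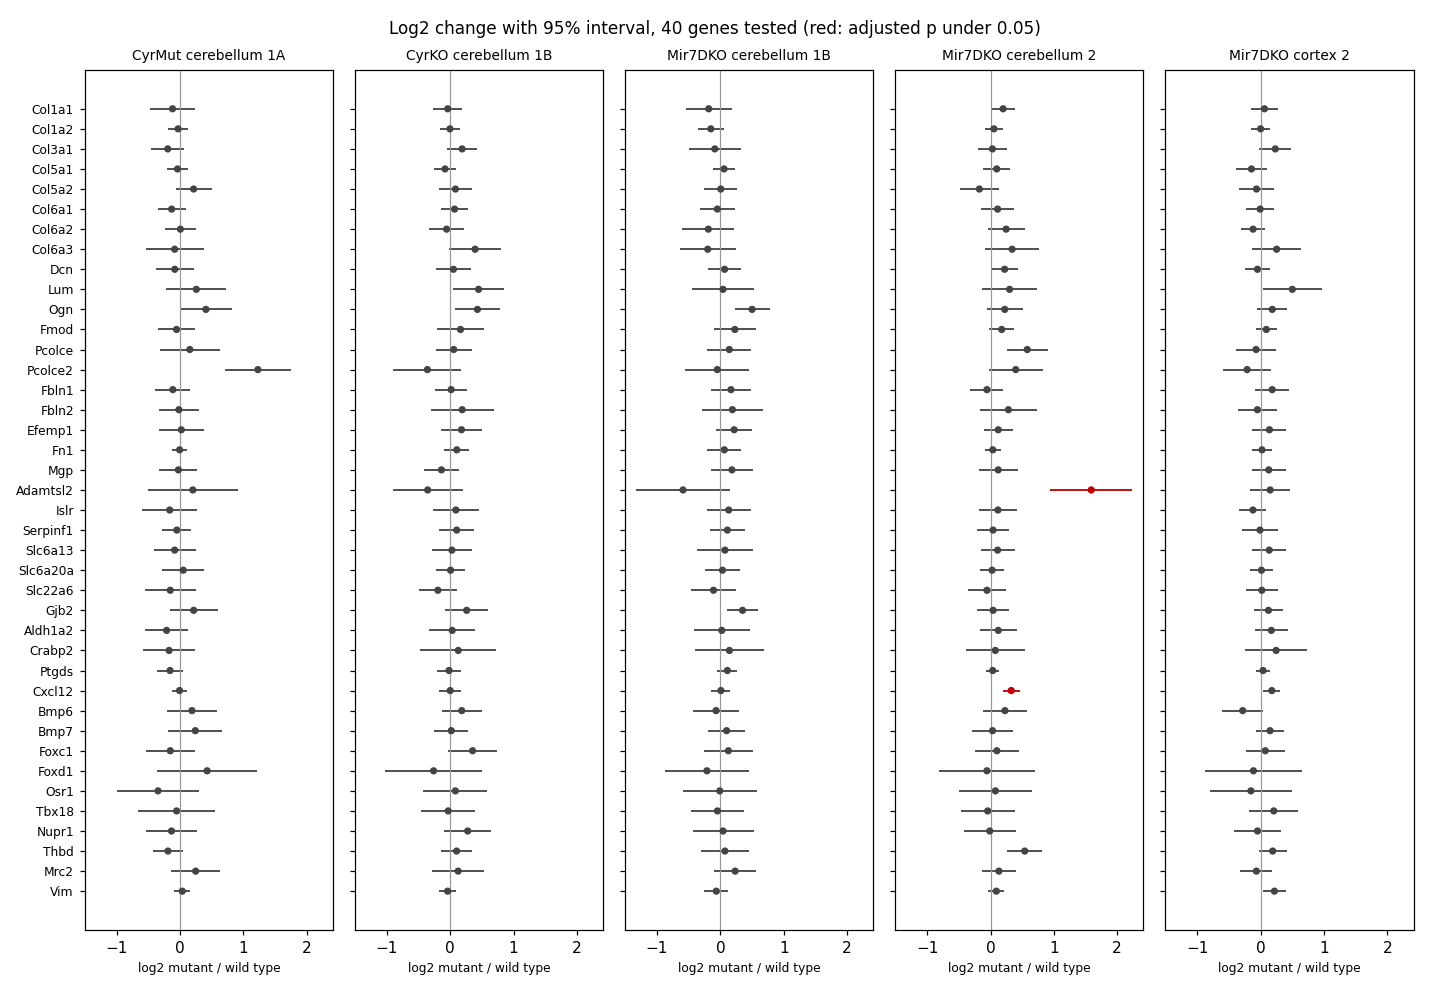
Log2 change of mutant over WT with 95% intervals for the 40 genes tested in the 5 genotype comparisons, with red for an adjusted p under 0.05. Only Adamtsl2 (1.59) and Cxcl12 (0.33) in Mir7DKO cerebellum of experiment 2 are red, and Pcolce2 (1.23) stands out in CyrMut.

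Other genes of the matrix, from a list of 75 of which 72 were found, were given as context. In Mir7DKO cerebellum of experiment 2, 2 of 69 tested were called higher and none lower, beside 0.156% and 0.0424% of all genes. These were Col8a1, a short-chain collagen, at 1.64 ± 0.297 (adjusted p = 0.0197) and Igfbp2, which binds insulin-like growth factors, at 0.86 ± 0.172 (adjusted p = 0.0315). Col8a2 gave 1.39 ± 0.318 (adjusted p = 0.0855) and Sparc, a collagen-binding protein, -0.20 ± 0.0499 (adjusted p = 0.1521). Several more of the 69 had an unadjusted p under 0.05 in edgeR, a level that 6.78% of all genes reached. All of these were higher, such as Hspg2 at 0.33 ± 0.0898 and Lamb1 at 0.33 ± 0.0987, except Emilin2 at -0.50 ± 0.152. The choroid plexus sums given above for these Mir7DKO libraries were high in replicates 1 and 2. The fit with the choroid plexus index covered these genes too, but their values in it are not given here. In CyrMut, where choroid plexus markers were also high, Col8a1 gave 1.70 ± 0.492, Col8a2 1.14 ± 0.367 and Igfbp2 0.93 ± 0.338. Their unadjusted p were 0.0054, 0.0101 and 0.0189, and none was called by edgeR.

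In the other 4 genotype comparisons none of the other matrix genes was called by edgeR. At an unadjusted p under 0.05, 6 were higher and 1 lower of 71 in CyrMut, and 1 higher and 5 lower of 68 in CyrKO, beside 4.98% and 7.35% of all genes. In Mir7DKO of experiment 1B none was higher and 8 of 68 were lower, beside 3.68% of all genes in either direction and 1.62% lower. Among the 8 were Col4a1 and Col4a2, chains of the basement membrane collagen, at -0.43 ± 0.104 and -0.35 ± 0.103. In Mir7DKO of experiment 2 they were not lower, at 0.117 and 0.099 in cerebellum and 0.065 and 0.153 in cortex, none called. In cortex 6 were higher and 1 lower of 68, beside 5.77%. Between WT tissues 26 of 70 were called higher and 27 lower in cerebellum, near the background of 37.3% and 37.4%.

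Single libraries of a group stood apart from the others in most of the genes at once. Each library's log2 level, with 0.5 CPM added, was taken as its deviation from its group mean. In Mir7DKO replicate 2 of experiment 1B, 39 of 40 genes lay above the group mean with a median deviation of 0.24, beside 51.4% of all genes. In replicate 1 of that group 35 of 40 lay below, with a median of -0.25. In CyrMut replicate 2, 34 of 40 lay below with a median of -0.28, and in WT replicate 1 of experiments 1A and 1B 33 and 34 did. In experiment 2 the medians of the cerebellum libraries stayed between -0.07 and 0.10.

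Some markers of other cells deviated with the set, but not in each experiment or tissue. Over the 26 cerebellum libraries the set's mean deviation had an r of 0.52 with border macrophage, 0.41 with mural and 0.39 with microglia markers. It was 0.39 with cerebellum markers, 0.40 with the other matrix genes, 0.16 with choroid plexus, -0.08 with endothelial and -0.39 with ependymal markers. Over the 7 libraries of experiment 1A, border macrophage, mural, microglia and cerebellum markers gave 0.86, 0.78, -0.322 and 0.638. Over the 12 libraries of experiment 1B they gave 0.548, 0.406, 0.661 and 0.317. Over the 7 cerebellum libraries of experiment 2 they gave 0.416, 0.089, 0.83 and -0.197. In the 7 cortex libraries they gave -0.455, -0.175, -0.733 and -0.064, and the other matrix genes 0.863. Border macrophage and mural markers were thus positive in each cerebellum experiment and negative in cortex. Ependymal markers gave 0.414, -0.737 and -0.018 in cerebellum of experiments 1A, 1B and 2. All are given as a description.

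Over the 26 cerebellum libraries the correlation of a gene's deviation with the mean of the other genes had a median of 0.61 and ran from 0.03 to 0.86, given as a description because the libraries share groups, scaling and depth. Fmod, a proteoglycan that binds collagen, was highest at 0.86, followed by Col1a1 at 0.83, Slc6a20a at 0.81, Slc22a6, an organic anion transporter, at 0.81 and Col3a1 at 0.79. In cerebellum of experiment 2 alone Col1a1 gave 0.43 and Slc22a6 0.34, over 7 libraries. Adamtsl2 (0.03), Pcolce2 (0.03) and Fbln2 (0.15) were lowest. The SD within groups of Fmod was 0.25 on the log2 scale where counting error alone gives 0.08, and that of Ptgds was 0.13 where counting error gives 0.02.

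**Figure D5:**
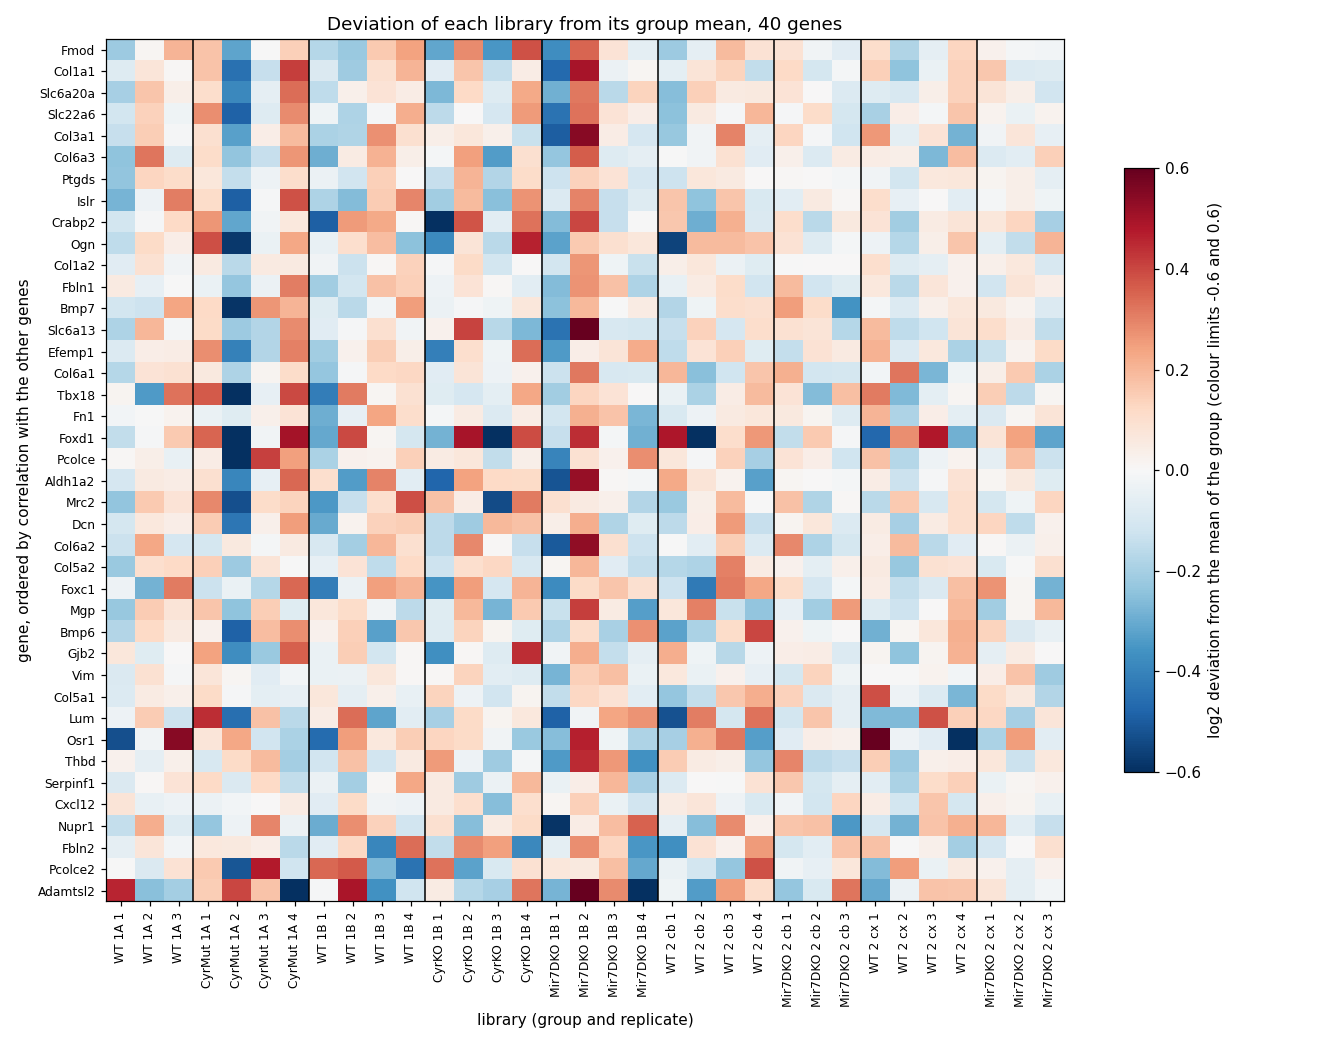
Log2 deviation of each of the 33 libraries from its group mean for the 40 genes, with genes ordered by correlation with the other genes and black lines between groups. Columns that are mostly of 1 colour are Mir7DKO replicates 1 and 2 of experiment 1B (medians -0.25 and 0.24) and CyrMut replicate 2 (-0.28).

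With Dcn as the reference gene, 13 of 40 genes had a Pearson's r over 0.5 across the 26 cerebellum libraries (32.5%), beside 2.2% of all genes, with a median r of 0.37 beside 0.00. None passed the adjustment over all genes. Slc6a20a was highest, with r = 0.67 (permutation p = 0.0037, adjusted p = 0.676) and rho = 0.57 (permutation p = 0.0128, adjusted p = 0.5891). Within experiments its r was 0.94 over the 7 libraries of 1A, 0.49 over the 12 of 1B and 0.52 over the 7 of experiment 2. Without CyrMut replicate 2 and WT replicate 1 of experiment 1B, the libraries farthest from the median of Dcn, only Slc6a20a stayed over 0.5, at 0.56, and the median fell to 0.24, so that the count rests on those 2 libraries. In the 7 cortex libraries 12 of 40 genes were over 0.5, beside 14.8% of all genes.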

How the data were processed

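Polyadenylated RNA of flash-frozen tissue was sequenced with a strand-keeping kit, per the labels' protocols. The deposited counts are whole reads per gene, made, per the submitters' processing notes, with HTSeq 0.6.1p1, STAR 2.4 and DESeq2 1.10 among the tools and GRCm38 (mm10) as the build. The authors' deposited log2 changes and adjusted p-values were copied where named. The sources used here do not say whether counting used strand. A further 37 deposited columns of normalised values were not used, and 1 shifted record (Myo15) was restored.

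The main test was that of edgeR 4.0.16, run under R 4.3.3 (minimum count 10 in filterByExpr, TMM, quasi-likelihood F-test, Benjamini-Hochberg over all genes, threshold 0.05), with DESeq2 1.42.0 as the other tool. The error of a log2 change is its size over the root of F. Levels are CPM per experiment and tissue. Replicates are described as biological by the submitters. Correlations across libraries used 100000 permutations and were adjusted over all genes, where the plan had named the 41 genes. Steps were tested on simulated data.

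The members and lists were chosen with earlier results of these data known. Genes were given in full where called in a genotype comparison, where among the 3 smallest p of one, or where among the 6 largest called changes in a direction between tissues, with Dcn, Col1a1, Slc6a13, Ptgds, Aldh1a2 and Cxcl12, and at most 4 other matrix genes. Pcolce, Fmod, Col4a1, Col4a2 and other genes outside this rule were named after their values were seen. Alternatives were scaling, tool, filter, left-out libraries, a replicate block, a choroid plexus covariate, all groups in 1 fit and a pseudocount of 2 in place of 0.5.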

Additional observations from a re-analysis of the deposited data

Results flagged for a closer look

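Within groups of 4 libraries, 7 values stood farther from the others than the 95% limit for a single outlying value, out of 132 groups examined. Chance flags about 1 in 20 groups. CyrMut replicate 2 had Col1a2 at 46.6 CPM, where the other 3 lay at 54.06 to 54.15 CPM. CyrMut replicate 4 had Fbln2 at 3.11 CPM, where the others lay at 3.659 to 3.725 CPM. In Mir7DKO replicate 2 of experiment 1B, Col6a1 was 19.2 CPM against 13.9 to 14.3 CPM, and Islr was 10.6 CPM against 7.71 to 8.05 CPM. Cxcl12 was 66.8 CPM in CyrKO replicate 3, against 82.8 to 85.8 CPM. Ogn was 8.37 CPM in WT cerebellum replicate 1 of experiment 2, against 14.2 to 14.4 CPM. The sum of all 41 genes was 1229 CPM in WT cortex replicate 2, against 1326 to 1339 CPM.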

How the results depend on the processing

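No call reversed its direction, but the median log2 change of the set, which no test covers, changed sign when single libraries were left out: it ran from -0.079 to 0.014 in CyrMut, -0.012 to 0.121 in CyrKO and -0.047 to 0.123 in Mir7DKO of experiment 1B. It kept its sign in cerebellum (0.073 to 0.162) and cortex (0.013 to 0.086) of experiment 2 and between WT tissues (-0.427 to -0.363). In CyrMut, DESeq2 and a fit with any count kept each called 1 gene of the set (Pcolce2) where the main test called 0, and leaving out 1 replicate gave 0 to 1. In Mir7DKO cerebellum of experiment 2, DESeq2 (Cxcl12), a mean count of at least 50 (Cxcl12; Adamtsl2 not tested) and the replicate block (Adamtsl2) each called 1 where the main test called 2, and leaving out 1 replicate gave 0 to 2. The block put Cxcl12 at 0.295 with an adjusted p of 0.1473 in edgeR and ended no other call of a genotype comparison. Correlations between deviations of same-numbered libraries ran from -0.216 to 0.305, and in no comparison were all over 0.1, so the numbers were not taken as pairs, although in cortex every library correlated best with its own number. In Mir7DKO cerebellum of experiment 2, Thbd was called with any count kept (adjusted p = 0.0027 in edgeR) and with all groups of the experiment in 1 fit (0.0475). The median change in Mir7DKO cortex was 0.143 with the choroid plexus covariate, against 0.049. The count of genes with r over 0.5 with Dcn fell from 13 to 1 without the 2 farthest libraries, an alternative chosen after seeing the data, as was leaving out libraries in the fit over both experiments. The cause of these shifts was not tested.

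Calls over all genes rose with any count kept from 1 to 43 in CyrMut, 3 to 10 in CyrKO, 1 to 4 in Mir7DKO of experiment 1B, and 28 to 184 and 6 to 48 in cerebellum and cortex of experiment 2. DESeq2 called 4 in CyrMut, 5 in experiment 1B and 13 over both experiments, where edgeR called 1 each. The block gave 2 in experiment 1B and 20 in cortex, a mean count of at least 50 gave 0 in experiment 1B, and DESeq2's size factors in edgeR gave 2 over both experiments. In cerebellum of experiment 2 the choroid plexus covariate gave 17 and all groups in 1 fit 55. Leaving out 1 replicate gave 1 to 17 in CyrMut, 3 to 10 in CyrKO, 0 to 2 in experiment 1B, 3 to 70 in cerebellum and 4 to 11 in cortex of experiment 2, and 1 to 6 over both experiments. Depth limits Adamtsl2, with 5 to 37 counts a library in experiment 2 cerebellum.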

Other observations

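Ttr, the leading choroid plexus transcript, fell into 2 separate sets of cerebellum libraries, 17 at 0.356 to 13.2 CPM and 9 at 110 to 965.9 CPM, so no correlation with it over all libraries was given. Over 15 libraries of the lower set, the median r of the 41 genes with Ttr was -0.42, beside 0.00 for all genes. None of the 41 passed the adjustment over all genes. Without the 2 libraries farthest from the median of Ttr the median was -0.18.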
